A study of Mus musculus with 24 samples.

Results

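The Iroquois homeobox genes Irx1, Irx2, Irx3, Irx4, Irx5 and Irx6 were followed in calibrated RNA-seq (cRNA-seq) of mouse embryonic stem cells (ESCs), before and after loss of the Polycomb repressive complex PRC1 or of its catalytic activity. The genes were taken by symbol from the gene table, in which 6 of 20633 rows carry an Irx symbol, 1 row for each gene, and all 6 passed the filter on low counts. They lie in a pair of 3-gene clusters. The IrxA cluster on chromosome 13 holds Irx1, Irx2 and Irx4, and the IrxB cluster on chromosome 8 holds Irx3, Irx5 and Irx6.

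Iroquois proteins are transcription factors with an atypical homeodomain of the TALE class and a conserved Iro box, and they pattern the neural tube, heart, limb and kidney of the embryo. In ESCs, developmental regulators of this kind are typical Polycomb targets, which are kept silent while PRC1, through its RING1A and RING1B subunits, ubiquitylates histone H2A and PRC2 methylates histone H3 around their CpG-rich promoters. PRC1 acts in canonical forms, which contain CBX proteins that bind the PRC2 mark, and in variant forms, which do not.

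Both ESC lines derive from E14 and carry Rosa26::ERT2-Cre, a recombinase that 4-hydroxytamoxifen (OHT) activates. PRC1CKO cells (clone B9) are Ring1a-/- and Ring1b fl/fl, so that OHT removes RING1B from cells that already lack RING1A. PRC1CPM cells (clone 41) carry the substitutions I50A and D53K in Ring1a and a Ring1b allele in which OHT swaps the wild-type exon for one encoding I53A and D56K, so that PRC1 remains but is catalytically inactive. Each line was sampled without treatment and after 72 h with 800 nM OHT, with 3 replicates of each of the 4 conditions, hence 12 RNA libraries. Each line is 1 clone, so that the clone and the genotype cannot be told apart, and the untreated cells received no agent. With RNA from whole cultures, a change in the number of expressing cells and a change in RNA per cell cannot be told apart.

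Promoter sequences from RefSeq (GRCm38.p6) covering 250 bases before to 50 bases after the transcription start were matched for 3 of the 6 genes, Irx2 and Irx4 from IrxA and Irx3 from IrxB. They are shown because the CpG content of promoters is the sequence feature linked to Polycomb in ESCs, and capitals mark each CG. The windows are chr13:72628570-72628869 on the plus strand for Irx2, chr13:73260247-73260546 on the plus strand for Irx4 and chr8:91801605-91801904 on the minus strand for Irx3. The start that RefSeq gives for Irx2 lies before the start of Irx2 in the gene table.
Irx2: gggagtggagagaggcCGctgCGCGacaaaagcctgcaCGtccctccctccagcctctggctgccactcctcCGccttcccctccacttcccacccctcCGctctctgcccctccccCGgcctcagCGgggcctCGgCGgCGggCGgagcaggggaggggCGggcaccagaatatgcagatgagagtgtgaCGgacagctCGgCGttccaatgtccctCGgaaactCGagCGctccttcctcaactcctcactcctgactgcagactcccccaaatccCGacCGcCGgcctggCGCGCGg
Irx4: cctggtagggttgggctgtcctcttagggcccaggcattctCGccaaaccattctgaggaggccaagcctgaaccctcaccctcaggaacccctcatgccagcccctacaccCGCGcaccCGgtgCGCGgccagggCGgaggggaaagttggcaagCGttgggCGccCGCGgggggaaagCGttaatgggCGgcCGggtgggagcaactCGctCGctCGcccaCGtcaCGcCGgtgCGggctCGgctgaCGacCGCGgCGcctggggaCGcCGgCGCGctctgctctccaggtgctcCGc
Irx3: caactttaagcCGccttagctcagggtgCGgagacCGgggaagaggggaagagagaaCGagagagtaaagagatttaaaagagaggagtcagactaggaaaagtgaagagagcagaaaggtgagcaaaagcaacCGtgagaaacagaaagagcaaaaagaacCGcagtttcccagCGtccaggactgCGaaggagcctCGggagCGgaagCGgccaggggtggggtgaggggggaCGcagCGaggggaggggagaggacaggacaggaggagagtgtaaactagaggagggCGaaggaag

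The Irx4 promoter held 31 CG dinucleotides in 300 bases, more than 89.4% of the 32851 mouse promoter windows of this length. The Irx2 promoter held 25, more than 81.6% of the windows. The Irx3 promoter held 14, more than 63.7% of them, against a median of 7 over all windows. The share of G and C was 70.7% for Irx4, 69% for Irx2 and 56% for Irx3. The palindrome ACANNTGT, a binding sequence known for Iroquois homeodomains, was searched in the windows. It was found in 0 of these 3 promoters and in 7.38% of all windows, which says only that these letters are not in these windows.

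Expression is given as the deposited normalised read count, which is the number of reads over the gene body divided by a factor from the Drosophila spike-in cells. The libraries held between 14668159 and 27016156 reads on genes. The medians were 20998133 in untreated and 24004077 in OHT-treated PRC1CKO cells, and 19062652 and 23164194 in the corresponding PRC1CPM cells. The weight of a read differed most in untreated PRC1CKO cells, with a normalised count of 1.49 per read in replicate 1 against 0.770 and 0.846 in replicates 2 and 3. The 36 values of the Irx genes in untreated libraries were between 0 and 70 reads, and 35 of them were even numbers. In the whole table, 76.9% to 81.7% of the rows with 1 to 19 reads in a library had an even number, so that many reads are mates of 1 fragment and the counting error of low genes is larger than the read number implies.

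Ring1, which encodes RING1A, had normalised read counts of 227 ± 76.3 (SD, n = 3) in untreated and 254 ± 26.4 in OHT-treated PRC1CKO cells, and of 162 ± 32.2 and 140 ± 25.8 in PRC1CPM cells. Rnf2, which encodes RING1B, had 1526 ± 201 and 1546 ± 50.8 in PRC1CKO cells and 1696 ± 140 and 1511 ± 214 in PRC1CPM cells. Neither gene was called changed by OHT in either line. Reads over the whole gene body include parts outside the edited exons, so these values do not check the genotypes. The cells carried the markers of ESCs. The 8 of 9 listed ESC markers that the table holds had reads in all 12 libraries, and Tdgf1, Esrrb or Zfp42 was the most abundant of them in each.

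All 6 Irx genes rose after OHT treatment in both lines. The background for this count is a share of 16.5% of the 16940 tested genes called higher in PRC1CKO cells and 13.1% in PRC1CPM cells, where a call needed a change of over 1.5-fold with a limma adjusted p below 0.05. The median log2 fold change of the 6 genes was 3.31 in PRC1CKO cells, against 0.12 over all tested genes, and 2.29 in PRC1CPM cells, against 0.10. Irx1, Irx5 and Irx6 passed the filter of at least 10 reads in 3 libraries only with their OHT-treated libraries, where they were high. Irx6 had at most 6 reads in any untreated library. The count and the medians include these genes, so they are a description and no separate support for a rise. In each line and for each of the 6 genes, the 3 OHT-treated libraries lay above the 3 untreated ones, which was the case for 22.1% of tested genes in PRC1CKO and 18.7% in PRC1CPM cells.

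**Figure D1:**
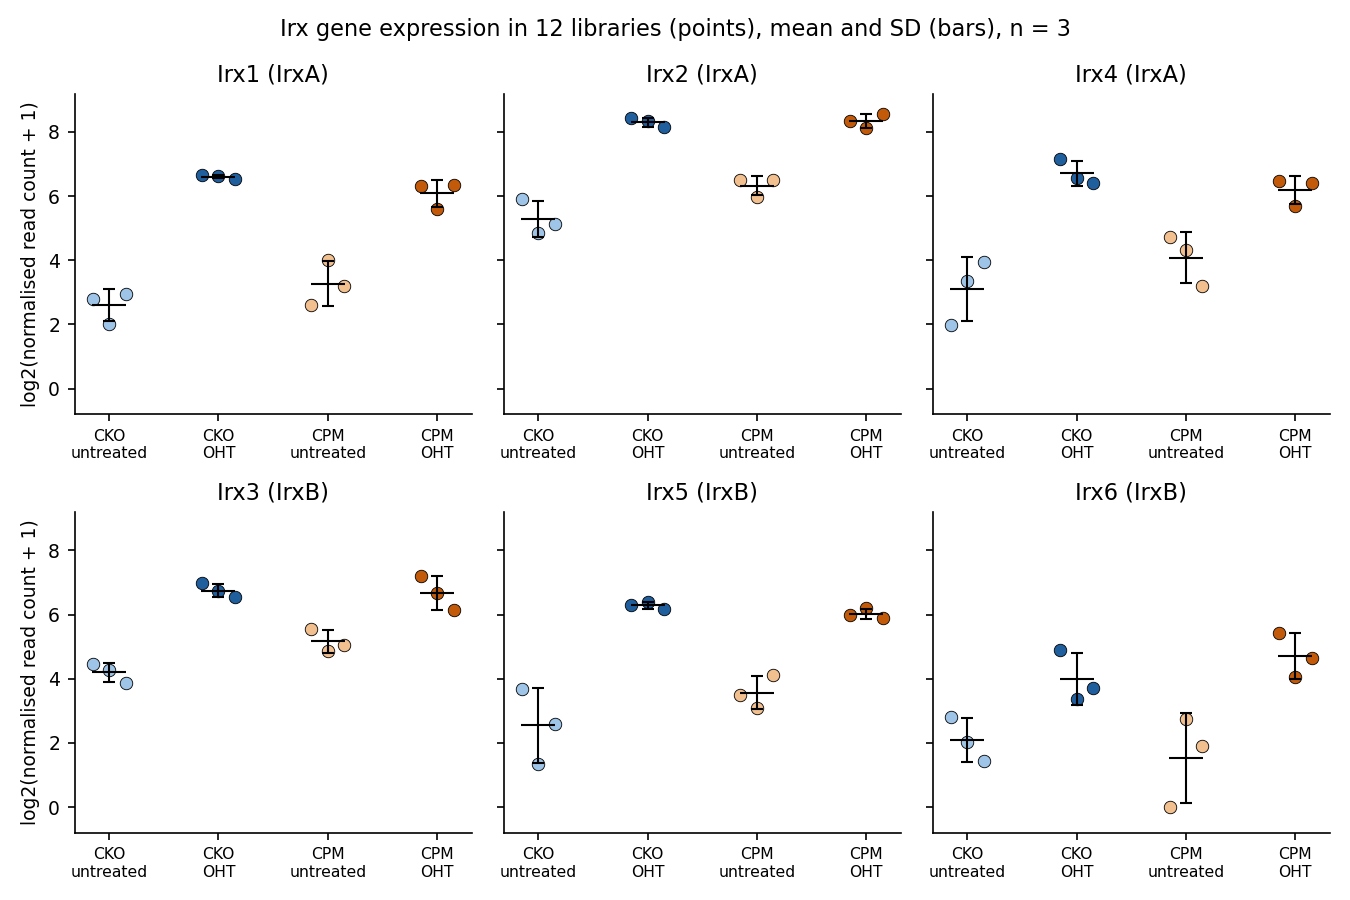
Expression of the 6 Irx genes as log2(normalised read count + 1) on the vertical axis, in the 3 libraries (points) of each of the 4 conditions on the horizontal axis, with the mean and SD as bars. The upper row shows IrxA and the lower row IrxB, and in every panel the OHT-treated libraries of a line lie above its untreated libraries.

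Irx1 (NM_010573, chr13:71958232-71963723, minus strand, 4 exons in mm10) is known for roles in the heart conduction system and the lung. In untreated PRC1CKO libraries its normalised read counts were 5.96, 3.08 and 6.76, from 4 to 8 reads, and after OHT treatment they were 99.4, 98.1 and 92.5. In PRC1CPM libraries they were 5.11, 15.1 and 8.13 before and 78.2, 47.9 and 81.1 after OHT treatment. The OHT-treated PRC1CKO libraries were close to each other, and all lay above the highest OHT-treated PRC1CPM library. The share of all tested genes whose libraries did not overlap between the lines was not counted, here or for the genes below. Its log2 fold change was 4.01 in PRC1CKO cells (SE 0.47, adjusted p = 1.4e-09) and 2.82 in PRC1CPM cells (SE 0.47, adjusted p = 9.3e-06).

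Irx2 (NM_010574, chr13:72628978-72634194, plus strand, 5 exons) was the most highly expressed of the 6 genes in all 4 conditions. Its normalised read counts were 59.6, 27.7 and 33.8 in untreated PRC1CKO libraries and 344, 320.3 and 284 after OHT treatment. In PRC1CPM libraries they were 89.5, 62.2 and 89.5 before and 325, 278 and 380.1 after OHT treatment. The OHT-treated libraries of both lines overlapped, while each untreated PRC1CPM library lay above each untreated PRC1CKO library. Its log2 fold change was 3.01 (SE 0.32, adjusted p = 7.9e-11) in PRC1CKO and 2.02 (SE 0.32, adjusted p = 3e-06) in PRC1CPM cells.

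Irx4 (NM_018885, chr13:73260497-73269620, plus strand, 6 exons) is a marker and regulator of the ventricular myocardium. It had 2.98, 9.23 and 14.4 in untreated and 141, 94.4 and 84.6 in OHT-treated PRC1CKO libraries. In PRC1CPM libraries the normalised read counts were 25.6, 18.8 and 8.13 before and 87.8, 51.0 and 84.3 after OHT treatment. Its untreated libraries varied more, relative to their mean, than those of Irx2, and the OHT-treated libraries of both lines overlapped. The log2 fold change was 3.62 (SE 0.47, adjusted p = 2.2e-08) and 2.12 (SE 0.47, adjusted p = 0.000743). In PRC1CKO cells it was 3.07 without untreated replicate 1 and 4.04 without untreated replicate 3.

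Irx3 (NM_001253822, chr8:91798511-91801654, minus strand, 4 exons) takes part in dorsoventral patterning of the spinal cord and in the conduction system of the ventricle. Its normalised read counts were 20.9, 18.5 and 13.5 in untreated PRC1CKO libraries and 125, 106 and 92.5 after OHT treatment. In PRC1CPM libraries they were 46.0, 28.3 and 32.5 before and 147, 102 and 70.1 after OHT treatment. As for Irx2, each untreated PRC1CPM library lay above each untreated PRC1CKO library. Its log2 fold changes were 2.55 (SE 0.39, adjusted p = 6.7e-07) in PRC1CKO cells and 1.52 (SE 0.39, adjusted p = 0.00358) in PRC1CPM cells, where it was the smallest of the 6 genes. Without OHT-treated PRC1CPM replicate 1, the adjusted p in PRC1CPM cells was 0.0510.

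Irx5 (NM_018826, chr8:92357796-92361456, plus strand, 3 exons) represses the potassium channel gene Kcnd2 in the ventricle. It had normalised read counts of 11.9, 1.54 and 5.07 in untreated PRC1CKO libraries, from 2 to 8 reads, and of 77.7, 83.3 and 70.7 after OHT treatment. In PRC1CPM libraries the values were 10.2, 7.54 and 16.3 before and 62.7, 72.7 and 58.1 after OHT treatment. The OHT-treated libraries of both lines overlapped. The log2 fold changes were 3.74 (SE 0.50, adjusted p = 2.9e-08) and 2.46 (SE 0.50, adjusted p = 0.00018). The value in PRC1CKO cells was 4.31 without untreated replicate 1 and 3.14 without untreated replicate 2, so that the order of Irx1, Irx4 and Irx5 by fold change depended on single libraries.

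Irx6 (NM_001301137, chr8:92674289-92680956, plus strand, 6 exons), known from interneurons of the retina, had the lowest expression of the 6 genes. Its normalised read counts were 5.96, 3.08 and 1.69 in untreated PRC1CKO libraries and 28.9, 9.26 and 12.2 after OHT treatment. In PRC1CPM libraries they were 0, 5.65 and 2.71, from 0 to 6 reads, before and 42.5, 15.5 and 24.1 after OHT treatment. It was the only one of the 6 genes with a larger log2 fold change in PRC1CPM cells (3.17, SE 0.68, adjusted p = 0.000393) than in PRC1CKO cells (1.91, SE 0.68, adjusted p = 0.0368). The call in PRC1CKO cells was made in 14 of 22 alternative fits, with adjusted p from 0.00883 to 0.257, and was lost without untreated replicate 2 or 3 or OHT-treated replicate 1 or 3 (log2 fold changes of 1.88, 1.58, 1.46 and 2.05). The call in PRC1CPM cells was made in all 22, with log2 fold changes of 2.40 without untreated replicate 1, which had 0 reads, 3.765 without untreated replicate 2 and 4.425 at a pseudocount of 0.1. Both counts of fits include those that left out a library of the other line. These could not change the fold change of the line tested, and the call stood in each.

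Levels of different genes were compared per kb of gene body, since longer genes collect more reads. After OHT treatment the order was Irx2, Irx3, Irx5, Irx1, Irx4, Irx6 in both lines. In PRC1CKO cells the levels were 60.6 ± 5.71, 34.2 ± 5.16, 21.1 ± 1.73, 17.6 ± 0.674, 11.7 ± 3.30 and 2.52 ± 1.59 normalised reads per kb (SD, n = 3), and the libraries of no neighbouring pair in this order overlapped. In PRC1CPM cells they were 62.8 ± 9.83, 33.8 ± 12.2, 17.6 ± 2.04, 12.6 ± 3.34, 8.15 ± 2.23 and 4.10 ± 2.07, and Irx1 overlapped with Irx4 and Irx4 with Irx6. In untreated cells of both lines the order was Irx2, Irx3, Irx5, Irx4, Irx1, Irx6, with 7.74 ± 3.24 for Irx2 and 0.536 ± 0.326 for Irx6 in PRC1CKO cells and 15.4 ± 3.02 and 0.418 ± 0.424 in PRC1CPM cells. There the libraries of Irx2 and Irx3 overlapped, as did those of Irx5 with Irx4 and of Irx4 with Irx1. Irx1 also overlapped with Irx6 in untreated PRC1CKO cells. The order of Irx3, Irx5, Irx1 and Irx4 depended on the length used, since exons make up 28.5% of the gene body of Irx4 and 75.2% of that of Irx3. Per kb of exon, OHT-treated PRC1CKO cells had a mean level of 46.9 for Irx1, 45.5 for Irx3, 41.0 for Irx4 and 32.1 for Irx5, with 120.5 for Irx2 and 4.99 for Irx6 still highest and lowest. In OHT-treated PRC1CPM cells they were 45.0 for Irx3, 33.5 for Irx1, 28.6 for Irx4 and 26.8 for Irx5, so that Irx3 kept the second place there.

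Whether inactive PRC1 leaves the Irx genes at a different level than no PRC1 is addressed by the OHT-treated lines. Here 0 of 6 genes were called different by limma, 0 by edgeR and 0 by DESeq2, and 0 had an unadjusted p under 0.05, with 1.47% of all tested genes called in either direction. The log2 differences of PRC1CPM from PRC1CKO cells were -0.52 for Irx1 and for Irx4, 0.044 for Irx2, -0.07 for Irx3, -0.26 for Irx5 and 0.72 for Irx6. Their 95% intervals do not show that the levels were equal. For Irx2, the best measured, the interval was -0.60 to 0.68, and for Irx6 it was -0.64 to 2.07. Irx1 was the only one of the 6 whose OHT-treated libraries did not overlap between the lines, with an interval of -1.47 to 0.43. How many of all tested genes lacked such an overlap was not counted. Among the cell type markers, Col1a1 was called higher (1.44) and Gata6 and Pdgfra lower (-1.78 and -1.04) in OHT-treated PRC1CPM cells, and their part in these values was not tested.

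In untreated cells, 5 of the 6 genes had a higher mean in PRC1CPM than in PRC1CKO cells, and 0 of 6 were called, with 2.69% of all tested genes called in either direction. The log2 differences were 0.68 for Irx1, 1.03 for Irx2, 0.97 for Irx3, 0.98 for Irx4, 1.02 for Irx5 and -0.54 for Irx6, with a median of 0.97 against 0.12 over all tested genes. An unadjusted p under 0.05 was reached by 4 of the 6, namely Irx2, Irx3, Irx4 and Irx5. How many of all tested genes reached it was not counted, and the 2.69% is at the stricter threshold of a call. Irx2 came closest to the threshold (SE 0.32, adjusted p = 0.0627), and DESeq2 called it (adjusted p = 0.0230) while edgeR called 0 of 6. With the replicate number as a block, limma called 3 of 6, namely Irx2 (adjusted p = 6.8e-05), Irx3 (adjusted p = 0.0118) and Irx4 (adjusted p = 0.0390), and DESeq2 called Irx2 and Irx3. With this block limma called 1884 of all 16940 tested genes, against 455 without it. DESeq2 called 1619 with the block, against 493 higher and 110 lower without it, so the background is higher there too. The 3 same-numbered pairs of untreated libraries deviated together from their group means, with correlations across genes of 0.220, 0.377 and 0.186, though the labels do not say what the numbers mark. Without untreated PRC1CKO replicate 1, Irx2 and Irx5 were called, with 1569 of 16927 tested genes, and all tested genes had a median difference of 0.30. Without untreated PRC1CPM replicate 2, Irx2 was called, and of all genes 615 were called higher and 90 lower, with a median of 0.21. With single libraries left out, the difference of Irx5 lay between 0.42 and 1.59 and was lowest without untreated PRC1CKO replicate 2, that of Irx4 between 0.43 and 1.42 and that of Irx1 between 0.31 and 1.00. The difference of Irx6 lay between -1.14 and 0.23, so that its sign depended on the libraries included. The genes of chromosomes 8 and 13 had median differences of 0.091 and 0.083 between the untreated lines, close to that of all genes. Among the cell type markers, Col1a2 was called higher in untreated PRC1CPM cells (1.38, adjusted p = 0.0081), and Sox7 (-2.26, adjusted p = 0.000513) and Sox1 (-1.40, adjusted p = 0.01997) were called lower. The other neuroectoderm markers, Pax6 and Nes, had 0.67 and 0.70 without a call. Their part in the differences of the Irx genes was not tested.

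The difference of the OHT responses between the lines was tested as an interaction of line and treatment, which called 0 of 6 genes by limma, edgeR and DESeq2, with 0.0236% of all genes called. The interaction was -1.19 for Irx1, -0.99 for Irx2, -1.04 for Irx3, -1.4999 for Irx4, -1.28 for Irx5 and 1.26 for Irx6 on the log2 scale. The adjusted p of each was 0.99994 in the limma fit without a block. Over the 21 alternative fits the lowest adjusted p was 0.0658 for Irx2 and 0.117 for Irx4, and 0 members were called. With the replicate number as a block, limma called 78 interactions higher and 246 lower among 16940 tested genes, and 0 of the 6. With single libraries left out, the value of Irx5 lay between -1.85 and -0.68 (without untreated PRC1CKO replicate 1 and 2) and that of Irx6 between 0.49 and 1.85 (without untreated PRC1CPM replicate 1 and 2). An unadjusted p under 0.05 was reached by Irx2 and Irx4. How many of all tested genes reached it was not counted, and the 0.0236% is at an adjusted p. For 5 of the 6 genes the response was thus numerically smaller in PRC1CPM cells, which started from higher untreated means. The interaction and both line comparisons share libraries and are not independent of each other.

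**Figure D2:**
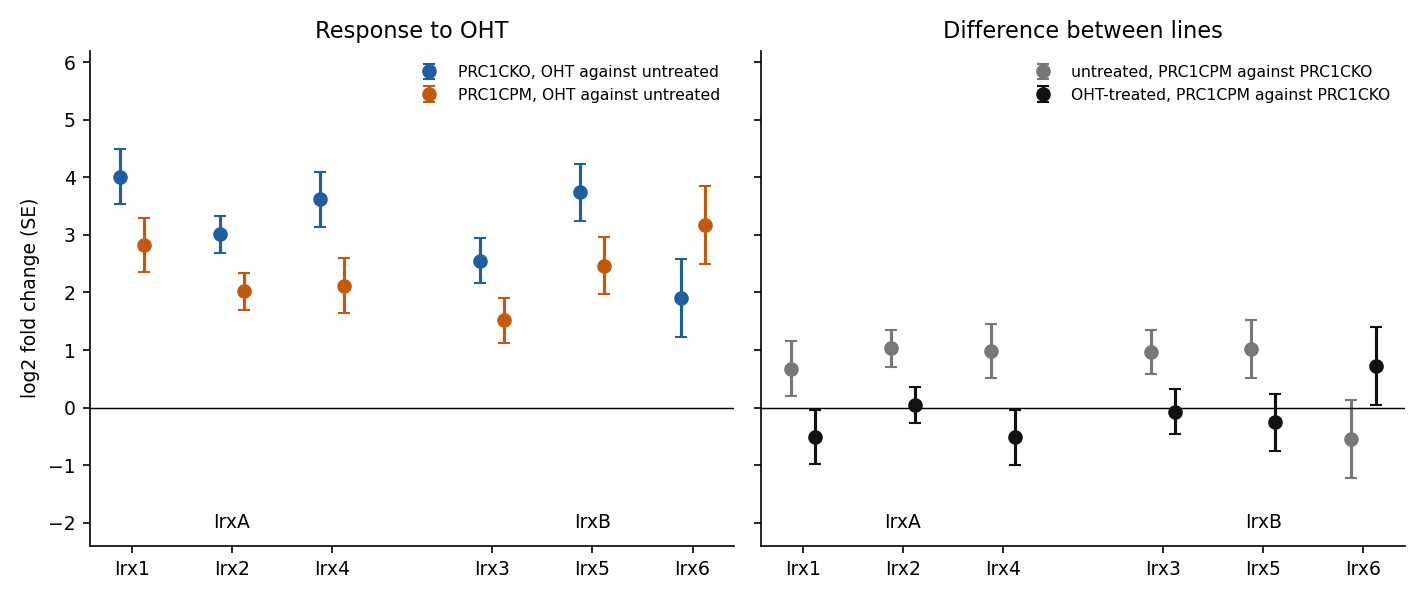
Log2 fold changes with SE (bars) of the 6 Irx genes from limma. The left panel gives the response to OHT in PRC1CKO and PRC1CPM cells, all above 0, and the right panel gives the difference between the lines in untreated and in OHT-treated cells, where 5 of 6 untreated values lie above 0 and the OHT-treated values lie between -0.52 and 0.72.

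The clusters were compared by the mean log2 fold change of their 3 genes, as a description without a test. In PRC1CKO cells the mean was 3.55 ± 0.19 for IrxA and 2.73 ± 0.33 for IrxB (SD over the 3 OHT-treated libraries), and the difference of IrxB from IrxA was -0.63, -0.96 and -0.84 in the 3 libraries (mean -0.81 ± 0.17). In PRC1CPM cells the means were 2.32 ± 0.35 and 2.38 ± 0.36, with a difference of 0.062 ± 0.42 and IrxB lower in 1 of 3 libraries. Irx6 carried much of this contrast. When it was left out, an alternative chosen after seeing the data, the difference was -0.40 in PRC1CKO and -0.33 in PRC1CPM cells. Single untreated PRC1CKO libraries also moved it, to -0.41 without replicate 1 and -1.14 without replicate 3.

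Summed over the 3 genes per kb of gene body, the level of IrxA went from 9.67 ± 2.99 to 89.9 ± 9.39 in PRC1CKO cells and from 19.05 ± 2.12 to 83.5 ± 14.9 in PRC1CPM cells (SD, n = 3). IrxB went from 7.83 ± 2.59 to 57.8 ± 7.35 and from 14.8 ± 2.78 to 55.5 ± 14.2. After OHT treatment IrxA lay above IrxB without overlap in PRC1CKO cells (80.6 to 99.4 against 50.5 to 65.2), and in PRC1CPM cells the ranges overlapped (67.5 to 96.9 against 41.8 to 70.2). Within each of the 6 OHT-treated libraries IrxA lay above IrxB. These sums depend on the length used, since exons make up 28.5% of the gene body of Irx4 and 75.2% of that of Irx3. Sums per kb of exon were not compared, so the overlap in PRC1CPM cells holds only per kb of gene body. Irx2 held 58.8% to 62.5% of the reads of IrxA in OHT-treated PRC1CKO libraries, and Irx3 held 52.7% to 53.9% of those of IrxB. In OHT-treated PRC1CPM libraries Irx2 held 66.2% to 73.7% and Irx3 held 46.0% to 58.2%. Across the 12 libraries, the Pearson correlation of log2 expression was 0.725 to 0.942 for the 6 pairs of genes in the same cluster (median 0.891) and 0.660 to 0.978 for the 9 pairs in different clusters (median 0.887). These points share libraries, scale and treatment, and the ranges of both kinds of pair overlapped.

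The neighbourhood of the clusters was examined because both lie in large stretches with few genes. IrxA spans 1311 kb and IrxB spans 882 kb. The table holds 39 other genes inside the clusters or within 1 Mb of a member, of which 28 were tested. In PRC1CKO cells 5 of the 28 rose and 1 fell, with a median log2 fold change of 0.27, and in PRC1CPM cells 3 rose and 1 fell, with a median of 0.18. These shares are to be read against backgrounds of 16.5% higher and 3.09% lower in PRC1CKO cells and of 13.1% higher and 1.4% lower in PRC1CPM cells.

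Inside the clusters, Gm20554 and Crnde differed. Gm20554, a noncoding transcript that starts 414 bases from the start of Irx2 in the opposite direction, had normalised read counts of 8.43 ± 5.97 before and 49.4 ± 13.8 after OHT treatment in PRC1CKO cells, and of 10.1 ± 2.40 and 38.6 ± 25.4 in PRC1CPM cells (SD, n = 3). It rose by 2.71 (SE 0.56, adjusted p = 0.000167) and 1.61 (SE 0.56, adjusted p = 0.0428) on the log2 scale. Crnde, a noncoding RNA transcribed away from Irx5 with 1.675 kb between the gene bodies, already had 487 normalised reads in untreated PRC1CKO cells and 600 after OHT treatment, and 667 and 637 in PRC1CPM cells. It was not called in either line (log2 fold changes 0.33 and -0.058, adjusted p = 0.464 and 0.955). The remaining 2 genes inside IrxA, D730050B12Rik and 4930555K05Rik, were under the filter with means of at most 2.53.

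Outside the clusters, the nearest genes did not pass the test. Fto, 130.1 kb from Irx3, whose introns are known to contain enhancers that contact Irx3, had log2 fold changes of 0.45 (adjusted p = 0.131) and 0.27 (adjusted p = 0.531). Rpgrip1l, the next gene on that side, had 0.40 in each line (adjusted p = 0.321 and 0.379). Ndufs6 and Mrpl36 beyond Irx4 had -0.24 and 0.22 in PRC1CKO and -0.17 and 0.22 in PRC1CPM cells, and Mmp2 and Lpcat2 beyond Irx6 had 0.16 and 0.34 and 0.27 and 0.36. Farther out, Slc6a2, Slc6a3, Slc6a19 and Slc9a3 rose in at least 1 line, while Slc12a7 was not called (0.054 and 0.10) and Slc6a18 was under the filter. Slc6a2, the noradrenaline transporter gene 280.1 kb from Irx6, rose by 3.05 (SE 0.38, adjusted p = 5.4e-09) and 2.00 (SE 0.38, adjusted p = 6.9e-05), from 14.0 to 118 and from 41.3 to 171 normalised reads, and it was also called higher in untreated PRC1CPM than in untreated PRC1CKO cells (adjusted p = 0.0112). Slc6a3, the dopamine transporter gene 267 kb from Irx4, rose by 1.22 and 1.74. Slc6a19 and Slc9a3 rose in PRC1CKO cells (1.4995 and 3.32), the latter from 0.564 to 12.9 normalised reads, while in PRC1CPM cells they had 1.02 and 1.82 with adjusted p = 0.209 and 0.115. Slc9a3 passed the filter on low counts only through OHT-treated libraries. Chd9, 744 kb from Irx3 and encoding a chromatin remodeller, fell by 0.81 in PRC1CKO and by 0.69 in PRC1CPM cells (adjusted p = 0.00276 and 0.0158).

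**Figure D3:**
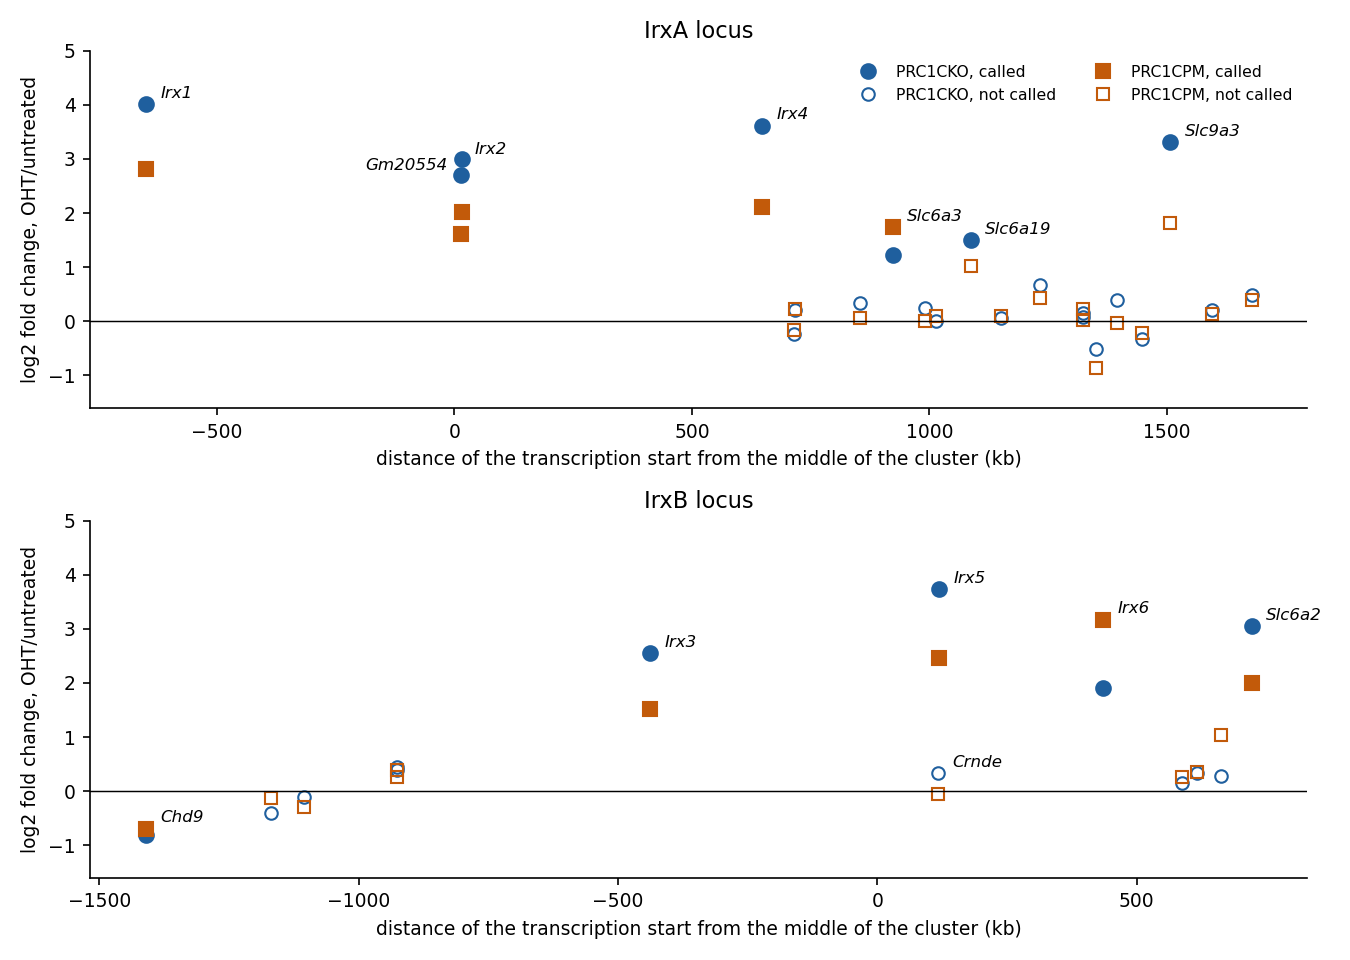
Log2 fold change after OHT treatment (vertical axis) of the tested genes of each Irx locus against the distance of their start from the middle of the cluster in kb (horizontal axis), with circles for PRC1CKO and squares for PRC1CPM cells and filled symbols for called genes. The Irx genes and Gm20554 stand between 1.52 and 4.01, Crnde lies near 0 between them, and most flanking genes lie near 0.

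Other homeobox genes of the TALE class, some of whose products are partners of Hox proteins were counted for comparison. Of 12 tested, 5 rose in PRC1CKO cells and 4 in PRC1CPM cells, and the median log2 fold change was 0.34 and 0.37, with 16.5% and 13.1% of all tested genes called higher. Meis1 rose by 3.93 (SE 0.28) and 2.84 (SE 0.28), Meis2 by 2.98 and 1.27, Mkx by 1.97 and 1.37 and Pknox2 by 1.08 and 1.05. Meis3 rose by 1.09 in PRC1CKO cells and had 0.99 in PRC1CPM cells (adjusted p = 0.0566). Meis2 was the only one of the 12 called different between the OHT-treated lines, lower in PRC1CPM cells (log2 difference -2.84, SE 0.31, adjusted p = 6.7e-09), and it was also lower in untreated PRC1CPM cells (-1.13, adjusted p = 0.0309). No test of the difference between the 6 Irx genes and these 12 was made.

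Genes with known links to Irx factors in the heart were counted next. Of 13 listed, 12 were tested, and 8 rose in PRC1CKO and 7 in PRC1CPM cells, with medians of 1.88 and 1.83, against 16.5% and 13.1% of all tested genes and medians of 0.12 and 0.10. Kcnd3 and Kcnd2, which encode channels of the transient outward current, rose by 4.49 and 3.17 in PRC1CKO and by 3.79 and 2.48 in PRC1CPM cells. Kcnip2, which encodes a subunit of the same channels, had -0.65 and -0.78 without a call (adjusted p = 0.151 and 0.0855), with each OHT-treated library of a line below each untreated one. The share of all tested genes with this separation was not counted. Tbx5 rose by 3.05 and 2.39, Hand1 by 2.68 and 1.97 and Nkx2-5 by 1.95 and 2.21. Hand2 had 0 reads in all untreated PRC1CKO libraries and 30.3 normalised reads after OHT treatment, at least 9.77-fold higher when each untreated library is set to a floor of 3 reads, and it rose by 2.82 in PRC1CPM cells. The median in PRC1CKO cells is the same with Hand2 at this bound. Hand2 passed the filter on low counts only through OHT-treated libraries. Myh6 rose by 1.06 in PRC1CKO cells (adjusted p = 0.0173) and had 0.57 in PRC1CPM cells (adjusted p = 0.342). Gja1, which Irx3 represses in the ventricular conduction system, was highly expressed before treatment (5101 and 7120 normalised reads) and had log2 fold changes of -0.087 and -0.44 without a call. Myh7 (0.055 and -0.22) and Gja5 (0.55 and 1.13) were not called either. Nppa was under the filter.

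Of 9 neural tube genes linked to Irx3, 7 were tested, and 6 rose in PRC1CKO cells and 4 in PRC1CPM cells (medians 3.67 and 1.28), against the same 16.5% and 13.1% of all tested genes. Olig2, which represses and is repressed by Irx3 at a boundary in the ventral spinal cord, rose by 4.35 (SE 0.71, adjusted p = 2.7e-06) and 3.69 (SE 0.71, adjusted p = 9.1e-05) together with Irx3, from 1.13 to 33.2 and from 0.628 to 17.7 normalised reads. Nkx6-1 rose by 4.26 and 2.65, Nkx2-2 by 3.67 and 3.22 and Pax6 by 3.06 and 1.28. A second transcript of Pax6 in the table had 2.77 with a call in PRC1CKO and 1.06 without a call in PRC1CPM cells. The fitted values of Olig2 and Nkx2-2, with means of at most 1.13 normalised reads in untreated cells, depend on the pseudocount. Olig2, Nkx2-2 and Nkx6-1 passed the filter on low counts only through OHT-treated libraries. Pax7 and Gli3 rose in PRC1CKO cells (3.74 and 0.75) and had 1.15 and 0.49 in PRC1CPM cells (adjusted p = 0.0593 and 0.171). Dbx2 was not called, and Dbx1 and Shh were under the filter. Of the 5 Groucho corepressors in the table, Tle2 rose in both lines (1.47 and 1.68), and the other 4 had log2 fold changes between 0.037 and 0.28.

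**Figure D4:**
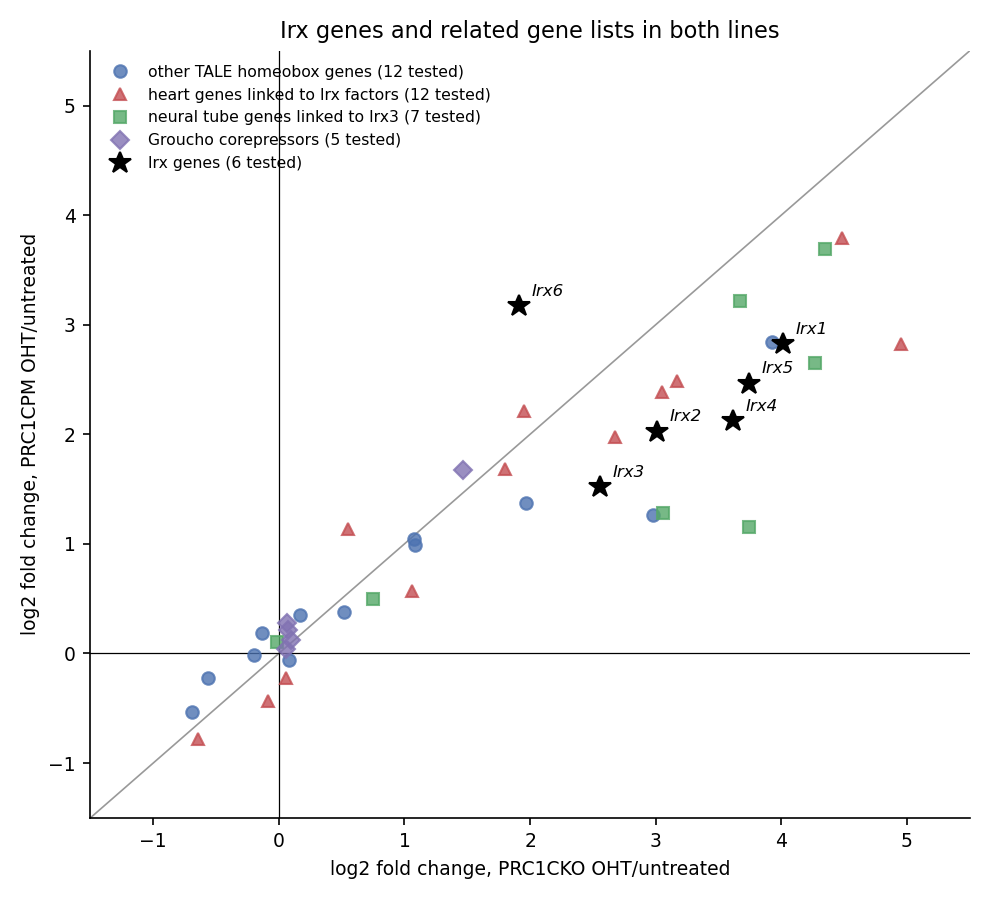
Log2 fold change after OHT treatment in PRC1CKO (horizontal axis) and PRC1CPM cells (vertical axis) for the 6 Irx genes (stars) and the tested members of 4 related lists (Hand2 at its fitted value), with the line of equal change in grey. Irx6 lies above the line and the other 5 Irx genes lie below it, and 4 of the 5 Groucho genes lie near 0.

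The genes most alike each Irx gene across the 12 libraries, by Pearson correlation of log2(normalised read count + 1) among 15786 genes, lay on other chromosomes, except for Bhmt, which is on chromosome 13 like Irx4. For Irx1 they were Alx4 (0.989), Pax9 (0.987) and Hmx3 (0.985). For Irx2 they were Gabra4 (0.992), Esx1 (0.991) and Tbx1 (0.990), and for Irx3 Them7 (0.993), Pde10a (0.988) and Camk4 (0.986). Irx4 was most like Nkx6-1 (0.987), Bhmt (0.973) and Dlx6os1 (0.971), and Irx5 most like Elfn1 (0.989), Gabra4 (0.980) and Nr2f1 (0.978). The values were lower for Irx6, at 0.947 for 1700007G11Rik, 0.938 for Kcne1l and 0.938 for Cpne6. These coefficients follow mainly the 4 conditions that all 12 points share, and they are a description without a p.

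Several markers of differentiated cells were also higher after OHT treatment, to be read against the 16.5% of all tested genes called higher in PRC1CKO and 13.1% in PRC1CPM cells. The primitive endoderm list, with Gata6, Gata4 and Pdgfra, went from a summed normalised read count of 1151 ± 584 to 3582 ± 653 in PRC1CKO cells (4 of 6 genes called higher) and from 738 ± 67.8 to 1925 ± 384 in PRC1CPM cells (6 of 6), with Pdgfra or Dab2 as its most abundant gene. The mesoderm list went from 154 ± 96.4 to 415 ± 93.2 and from 168 ± 80.9 to 423 ± 155, mostly Eomes or T, with both called higher in both lines, Mixl1 not called (adjusted p = 0.0513 and 0.317) and Mesp1 under the filter. The neuroectoderm list went from 846 ± 444 to 1837 ± 144 and from 1110 ± 157 to 1623 ± 588, mostly Nes. There Pax6 was called higher in both lines and Nes in PRC1CKO cells, while Nes had 0.45 (adjusted p = 0.355) in PRC1CPM cells and Sox1 was not called. The cardiomyocyte list went from 1255 ± 153 to 2331 ± 205 and from 1710 ± 213 to 2655 ± 379, mostly Actn2, with 3 of 4 genes called higher in PRC1CKO cells and Actn2 and Nkx2-5 in PRC1CPM cells, and with mean counts of Tnnt2 between 20.5 and 52.7. Their part in the rise of the Irx genes was not tested.

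The sums of the other lists differed less or changed in opposite directions. The ESC list went from 68074 ± 16327 to 52634 ± 3971 in PRC1CKO cells, where Sox2 and Utf1 fell by 0.89 and 0.79 on the log2 scale and the other 6 were not called, with 3.09% of all tested genes called lower, and from 62362 ± 11220 to 56989 ± 16403 in PRC1CPM cells, where Sox2 had -0.45 (adjusted p = 0.136). The trophoblast list, mostly Tfap2c, went from 1634.7 ± 229 to 1256 ± 160 and from 1131 ± 82.4 to 1572 ± 315, with Elf5 under the filter. Tfap2c fell by 0.66 (adjusted p = 0.0255) and Krt7 rose by 0.98 (adjusted p = 0.0341) in PRC1CKO cells, and Cdx2 rose by 1.71 (adjusted p = 0.0272) in PRC1CPM cells. The fibroblast list, mostly Col1a1, went from 3449 ± 1935 to 3516 ± 404 and from 7585 ± 5962 to 8478 ± 5486. Its member Lum had 0 reads in 8 of the 12 libraries, and Thy1 was its only member called after OHT treatment, in PRC1CKO cells. Col1a1 reached 10522 and 12136 normalised reads in replicate 1 of untreated and OHT-treated PRC1CPM cells.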

How the data were processed

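RNA of 12 libraries was analysed. The authors removed ribosomal reads, aligned the rest with Bowtie 2 and STAR to the mouse and Drosophila genomes (mm10 and dm6), kept unique reads, removed duplicates with Sambamba and counted reads over gene bodies. Strand use in counting is not given in the sources used here. The deposited values are normalised read counts (a signal, not raw counts), which the authors scaled with size factors from DESeq2 on Drosophila spike-in reads, corrected by the ratio of the genomes in matched gDNA-seq. Whole reads were recovered for 100% of values within 0.02. The table's fold changes and adjusted p-values of the authors' own comparisons were not used.

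Log2(normalised read count + 1) was fitted for 16940 genes with at least 10 reads in 3 libraries with limma 3.58.1 (R 4.3.3; mean-variance trend, 1 mean per condition, Benjamini-Hochberg adjustment over all tested genes). Fold changes are on this scale and understate those of low genes. A call needed a change of over 1.5-fold with an adjusted p below 0.05, and for the interaction the adjusted p alone. The scripts were tested on simulated data. Alternatives were edgeR 4.0.16 and DESeq2 1.42.0 on recovered reads, other scalings, pseudocounts and filters, the replicate number as a block and each library left out. The labels name replicates without their source cultures, so that p-values measure the spread between these samples. The members and lists were chosen with earlier results of these data known. Genes named are the 6 members, genes within 1 Mb of them, list members, and the 3 most alike genes of each member. The values of 1 listed heart gene are not reported here, though the counts of its list include it.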

Additional observations from a re-analysis of the deposited data

How the results depend on the processing

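Over the 22 alternatives, members called higher were 5 or 6 in each line, all 6 in 14 fits for PRC1CKO and in 21 for PRC1CPM cells, and the changes came from Irx6 in PRC1CKO (adjusted p 0.0551 without the gDNA correction, 0.177 at a pseudocount of 0.1, 0.145 without the filter and 0.0543 without the trend) and Irx3 in PRC1CPM cells. The fits for a line include those without a library of the other line, which left its fold changes as they were. Between OHT-treated lines and for the interaction 0 members were called in 21 alternatives. Between untreated lines 1 was called with DESeq2, 1 with TMM scaling, 3 with the replicate block (Irx2, Irx3 and Irx4), 2 with the replicate block in DESeq2, and 0 to 2 with a library left out. Same-numbered libraries of different conditions had a mean correlation of deviations of 0.205 (17 of 18 pairs over 0.1, lowest 0.0988) and 12 of 12 libraries correlated best with their own number, but the labels do not say what a number marks. With the block, no other member count changed.

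Between OHT-treated lines the difference of Irx2 was -0.058 with TMM and -0.068 to 0.16 with a library left out, and that of Irx3 was 0.098 without the gDNA correction and -0.33 to 0.20 with a library left out. Between untreated lines that of Irx6 was -1.14 to 0.23. The cluster difference was -1.14 to -0.41 in PRC1CKO and -0.17 to 0.33 in PRC1CPM cells with a library left out, and -0.40 and -0.33 without Irx6. The cause of these changes was not tested.

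Over all genes, 249 were called between OHT-treated lines, against 430 with DESeq2, 784 with TMM, 462 without the gDNA correction, 73 without the filter, 1363 with the replicate block, 1301 with the block in DESeq2 and 116 to 477 with a library left out. Between untreated lines the 455 became 1052 with TMM, 278 without the gDNA correction, 132 without the filter and 1884 with the block. With a library left out they were 244 to 1569 (1569 without untreated PRC1CKO replicate 1). DESeq2 called 493 genes higher and 110 lower between untreated lines, and 1619 in either direction with the block. The 4 interactions became 15 with DESeq2, 14 with TMM, 1 at a pseudocount of 0.1 and 0 without the trend. They became 324 with the block, 238 with the block in DESeq2, and 1 to 28 with a library left out. Higher calls made up 84.2% of calls in PRC1CKO and 90.4% in PRC1CPM cells, against 71.5% and 80.1% with TMM. Between OHT-treated and untreated lines they made up 85.1% and 82.2%, against 66.7% and 70.8% by TMM scaling, and the uncorrected spike-in gave 95.5% and 46.8%. Without that correction the median of all genes was -0.037 in PRC1CKO and 0.39 in PRC1CPM cells. Untreated values of the Irx genes rest on few reads, which limits each difference between untreated lines.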
